A study of Mus musculus with 18 samples.

Results

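The 39 genes described here encode the Myc transcription factors and proteins that build ribosomes, together with the enzyme pair that methylates transfer RNAs at a guanine of the variable loop. They were listed by name, with earlier results of these data known, and were matched by gene identifier to mouse symbols on GRCm38, giving 39 of 39 members among 52636 listed genes. RNA was sequenced from cultured mouse lung cells labelled alveolar type 2, the surfactant-producing cells of the alveolus, after 19 days of growth with CHIR99201, the labels' spelling of a small-molecule Wnt agonist (called CHIR below). LGK974, an inhibitor of the porcupine enzyme that cells need to secrete Wnt ligands, was listed for every group, including the control. The 6 groups held 3 libraries each. In 3 groups CHIR was replaced by an agonist of the receptor Fzd5, by an agonist of the receptor Fzd6 or by Wnt (FZD5 agonist, FZD6 agonist and WNT). The other groups were cells kept with CHIR as the control, cells after 24 h of CHIR withdrawal and cells after 48 h of CHIR withdrawal. Treatments lasted 8 to 12 h. Neither the time without CHIR before a ligand was added nor the independence of the 3 libraries of each group (cultures or animals) is given in the labels. The p-values therefore describe the scatter of these libraries, an unknown part of which may be technical.

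Ribosomes are made in the nucleolus. RNA polymerase I transcribes a long precursor from the ribosomal DNA, small nucleolar ribonucleoproteins (snoRNPs) guide its chemical modification, and large sets of assembly factors fold, cut and export the 40S and 60S subunits. Myc binds DNA as a dimer with Max at the E-box, and genes for these factors are among its best-known targets in growing cells. Wnt signalling through beta-catenin is known to raise Myc in several epithelia, and in the lung it maintains alveolar type 2 cells in a progenitor state.

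Total gene counts per library lay between 31509607 and 52030066, so that a count of 3 corresponds to 0.0589 to 0.106 CPM (counts scaled by TMM-corrected library size). All 9 listed markers of alveolar type 2 cells were detected, with summed levels of 66554 to 166071 CPM. Of 5 haematopoietic markers 4, all but Cd68, reached at most 3 counts in any library, and the list summed to at most 13.6 CPM. Of 4 mesenchymal markers 2 exceeded 3 counts in a library, and the list summed to at most 0.714 CPM. Of 3 endothelial markers 1 did so, and that list summed to at most 0.119 CPM. Within these lists Adgre1, Col3a1, Cdh5 and Kdr were at 0 counts in all 18 libraries, so the other cell types were low but not wholly absent. Libraries FZD6 agonist 1, CHIR 3 and 24 h withdrawal 2 stood apart. They had 38.6 to 79.8 CPM of Scgb1a1, a secretoglobin of airway club cells, against 0.0882 to 0.947 CPM in the other 15, and 0 to 0.141 CPM of Xist, the RNA of the inactive X chromosome, against 6.36 to 22.2 CPM. Summed over 3 basal cell markers, FZD6 agonist 1 had 9.27 CPM, CHIR 3 had 2.68 CPM and 24 h withdrawal 2 had 0 CPM, against at most 0.0238 CPM in the other 15. Cycling cell markers summed to 65.6 to 237 CPM in these 3 libraries and to 255 to 909 CPM in the other 15. Mitochondrial genes took 4.13% of the counts of 24 h withdrawal 2 and 0.271% to 0.718% of those of the other libraries. CHIR 1 was also less similar to the rest, with a median correlation of 0.931 with the other libraries, where the 14 libraries outside these 4 reached at least 0.975. Results are therefore given for 18 libraries and, where the values differ, for the 15 libraries that remain without FZD6 agonist 1, CHIR 3 and 24 h withdrawal 2, with 2 libraries left in each of those groups.

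The filter on low counts left all 39 members in the test. Per unit of gene length, the highest median RPKM values (deposited values scaled by gene length and depth) over the 18 libraries were those of Polr1c at 79.8 RPKM, Nhp2 at 49.1 RPKM, Nop10 at 46.2 RPKM and Ncl at 34.1 RPKM. The lowest were Mycl at 0.0416 RPKM, Wdr12 at 0.638 RPKM and Fbl at 0.879 RPKM, and the median of Mycn, at 17.6 RPKM, lay above that of Myc, at 10.8 RPKM. Reads of some members could be split with near-identical copies. Of the 50-base stretches in annotated transcripts, those shared with other genes made up 70.2% for Fbl, 31.9% for Npm1, 30.3% for Nop56 and 24.6% for Pes1, and under 10% for 33 members, so the levels of the first 4 are uncertain. The sources used here do not state whether counting used the strand, and 12 members overlap a protein-coding gene on the opposite strand, among them Mettl1, Gnl3, Nop56, Rrp9, Dkc1, Nhp2 and Wdr12.

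RefSeq promoters on GRCm38.p6, each 250 bases before to 50 bases after a gene's start, were at hand for 33 members. A gene with several starts had several promoters and was counted if any of them held the motif. The E-box CACGTG, a palindrome read alike on both strands, occurred for 9 of the 33 (27.3%), against 2187 of all 27025 genes with a promoter (8.09%). The letters CTTTGAT or CTTTGAA, on either strand, used here for the TCF/LEF factors of the Wnt pathway, occurred for 2 of 33 (6.06%), against 9.88% of all genes with a promoter. Such matches describe letters in a window and do not show binding. The promoters of the 4 members that both held an E-box and were lower after 48 h of withdrawal than with CHIR are printed to show where the motif lies, 5′ to 3′ on the gene's strand with the E-box in capitals. Counting from the annotated start, the first base of the E-box was at position 31 in Mettl1 (chr10:127041682-127041981, plus strand), 29 in Ltv1 (chr10:13193088-13193387, minus strand), 18 in Wdr43 (chr17:71615965-71616264, plus strand) and −60 in Nop2 (chr6:125131633-125131932, plus strand).
Mettl1: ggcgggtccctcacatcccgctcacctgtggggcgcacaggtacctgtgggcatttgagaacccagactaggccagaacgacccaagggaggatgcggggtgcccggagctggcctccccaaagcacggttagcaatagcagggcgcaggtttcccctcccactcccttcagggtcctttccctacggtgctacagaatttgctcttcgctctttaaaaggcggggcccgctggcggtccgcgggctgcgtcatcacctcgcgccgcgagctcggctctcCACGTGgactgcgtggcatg
Ltv1: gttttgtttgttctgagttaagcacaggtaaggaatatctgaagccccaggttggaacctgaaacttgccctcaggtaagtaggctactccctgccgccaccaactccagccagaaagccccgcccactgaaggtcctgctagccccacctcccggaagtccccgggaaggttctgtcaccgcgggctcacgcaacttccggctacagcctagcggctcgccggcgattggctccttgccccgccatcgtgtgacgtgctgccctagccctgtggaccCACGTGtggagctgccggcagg
Wdr43: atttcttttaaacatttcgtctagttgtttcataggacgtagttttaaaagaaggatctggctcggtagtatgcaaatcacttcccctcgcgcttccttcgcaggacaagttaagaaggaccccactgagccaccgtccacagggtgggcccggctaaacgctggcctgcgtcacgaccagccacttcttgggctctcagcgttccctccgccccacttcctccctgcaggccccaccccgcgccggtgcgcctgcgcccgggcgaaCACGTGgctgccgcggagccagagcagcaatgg
Nop2: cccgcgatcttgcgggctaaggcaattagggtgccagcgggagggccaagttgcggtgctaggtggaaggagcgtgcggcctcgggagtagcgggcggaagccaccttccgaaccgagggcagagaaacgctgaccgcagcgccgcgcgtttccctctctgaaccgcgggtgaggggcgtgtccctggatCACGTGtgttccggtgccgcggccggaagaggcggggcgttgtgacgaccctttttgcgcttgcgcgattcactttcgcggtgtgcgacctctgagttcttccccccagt
The other E-box promoters were those of Max, Rrn3, Pes1, Utp4 and Utp20, and Rrn3 held the motif at −215 and at −48. Of the 21 members lower after 48 h, 20 had a promoter sequence and 4 of these held the E-box, while the other 5 E-box promoters belonged to members that were not called. For Myc, Npm1, Fbl, Bop1, Rrp12 and Rrs1 no promoter sequence was used here.

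After 48 h without CHIR, many of the ribosome assembly genes were lower than with it. Of the 39 members, 21 fell and none rose at 48 h against CHIR (edgeR quasi-likelihood test over 18 libraries, adjusted p under 0.05), where 1.49% of all 16497 genes tested were called lower. The largest falls were those of Mettl1, Gnl3, Nhp2, Wdr12, Nop56 and Rrs1, with fitted levels between 0.272 and 0.386 of those with CHIR. The median log2 fold change of the members was −0.999, against −0.04 over all genes tested, and 36 of 39 were fitted lower. All 3 libraries at 48 h lay below all 3 CHIR libraries for 30 members, where 14.5% of all genes were so, and above them for 1, Mycl. Summed over the members, the libraries had 3116, 2777 and 2744 CPM with CHIR, 2065, 2301 and 2078 CPM at 24 h, and 1526, 1631 and 1567 CPM at 48 h, so that the 3 groups did not overlap. Bulk RNA cannot tell fewer cells with high levels apart from less RNA per cell. The count depended on which library was left out. It was 4, 10 and 5 members without the 48 h libraries 1, 2 and 3 in turn, and 17, 20 and 21 without each CHIR library. For fits that leave out 1 library, here and below, the share of all genes called was not computed. With 15 libraries 28 members were called, all lower, where 17.1% of all genes were called lower, and these included all 21.

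**Figure D1:**
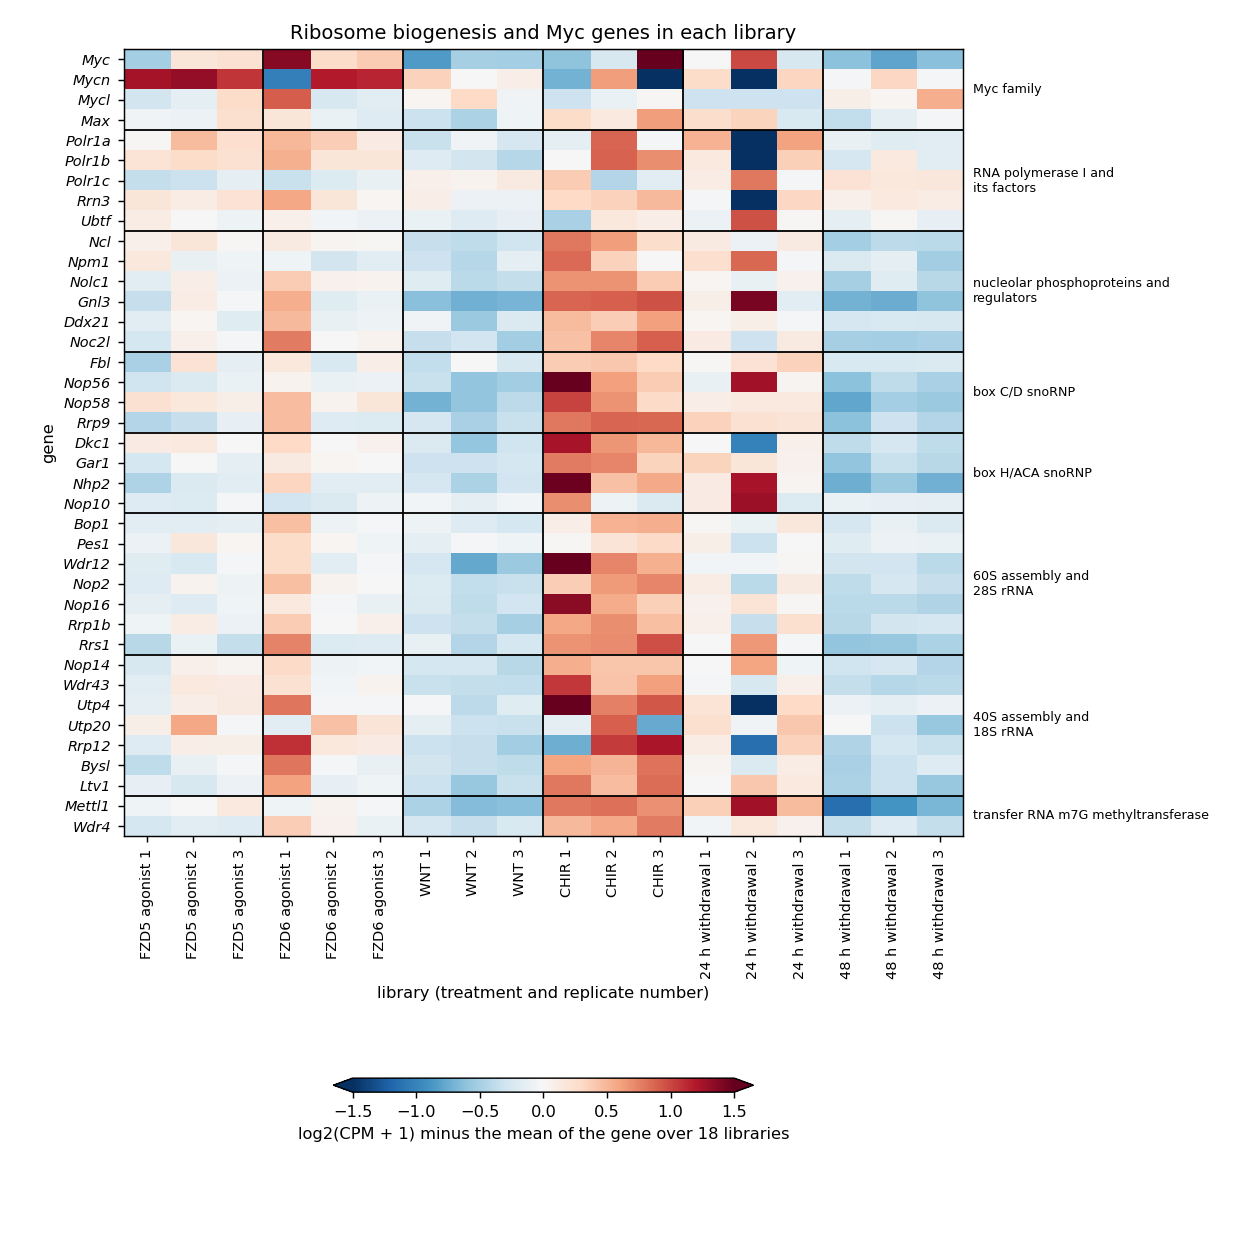
Each row is a member gene and each column a library, coloured by log2(CPM + 1) minus the gene's mean over 18 libraries. The 3 CHIR columns are red for most rows and the WNT and 48 h withdrawal columns blue, while 24 h withdrawal 2 departs from its group in both directions.

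Levels of other markers differed along with these. Summed over 8 genes of cycling cells, the libraries had 909, 856 and 130 CPM with CHIR, 512, 65.6 and 602 CPM at 24 h, and 255, 318 and 296 CPM at 48 h. CHIR 3, a library that stood apart, had the members at 2744 CPM with cycling markers at 130 CPM, below every 48 h library. In CHIR 1 and CHIR 2 both sums were above those of every 48 h library. Of these genes Mki67, a marker of proliferation, had 207, 189 and 15.3 CPM with CHIR and 51.2, 64.8 and 60.7 CPM at 48 h. Over 18 libraries it differed by −1.22 ± 0.73 at 48 h (SE; adjusted p = 0.435). Alveolar type 1 markers summed to 8604 to 9970 CPM at 48 h and 3753 to 7234 CPM with CHIR, and 3 of the 8, Ager, Hopx and Clic5, rose. The sums of club and secretory markers were 525 to 658 CPM at 48 h, against 46.5, 47.0 and 889 CPM with CHIR, the last being CHIR 3. The part of these cell types in the members' change was not tested.

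None of the 4 genes of the Myc family was called at 48 h by edgeR or DESeq2, and 2 of them had an unadjusted p under 0.05. Myc (chromosome 15, 61985391 to 61990374, plus strand; all positions are GRCm38 with GENCODE M21) had 22.6, 29.2 and 146 CPM with CHIR, 34.7, 70.1 and 29.3 CPM at 24 h, and 22.4, 19.6 and 22.1 CPM at 48 h. Its high values were those of CHIR 3 and 24 h withdrawal 2, while CHIR 1 at 22.6 CPM was next to the highest 48 h library at 22.4 CPM. The log2 fold change was −1.62 ± 0.57 (SE; adjusted p = 0.154), but −0.26 ± 0.21 (SE; adjusted p = 0.353) with 15 libraries. Mycn (chromosome 12, 12936093 to 12941914, minus strand), the paralogue best known from the embryo and from progenitor cells, had 28.1, 72.8 and 13.1 CPM with CHIR, 56.4, 1.23 and 58.3 CPM at 24 h, and 45.8, 58 and 46 CPM at 48 h. Here CHIR 3 and 24 h withdrawal 2 were the lowest, the reverse of Myc, and the groups overlapped, with 0.39 ± 0.86 (SE; adjusted p = 0.879). Mycl (chromosome 4, 122995652 to 123002485, plus strand), the third paralogue, was barely detected at 0, 0.154 and 0.258 CPM with CHIR and 0.316, 0.267 and 0.809 CPM at 48 h, and had 0 counts in all 3 libraries at 24 h. Against the 24 h floor of 3 counts per library, a mean of 0.0892 CPM, it was at least 5.2-fold higher at 48 h, or 3.27-fold without 48 h withdrawal 3. That difference was not called by edgeR, while DESeq2 called it. Max (chromosome 12, 76937269 to 76962201, minus strand), the dimer partner, had 44.1, 40.2 and 56.4 CPM with CHIR, 43.7, 46 and 30.7 CPM at 24 h, and 27.8, 32.6 and 35.4 CPM at 48 h. The 48 h libraries lay below the CHIR libraries, but the difference of −0.56 ± 0.21 (SE; adjusted p = 0.187) was not called.

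None of the 5 genes of RNA polymerase I and its factors was called by edgeR or DESeq2, and none had an unadjusted p under 0.05. Polr1a and Polr1b encode the largest subunits of the enzyme, Polr1c a subunit shared with RNA polymerase III, Rrn3 the factor that recruits the enzyme to ribosomal DNA and Ubtf the factor that keeps that DNA open. Their log2 fold changes at 48 h ran from −0.67 for Polr1b to 0.21 for Polr1c, with a median of −0.27. The library 24 h withdrawal 2 was far below its group for 3 of them, with 4.37 CPM of Polr1a, 3.56 CPM of Polr1b and 6.45 CPM of Rrn3, against 28.3 to 73.1 CPM in the other 24 h libraries. With 15 libraries Polr1b was called lower, at −0.58 ± 0.20 (SE; adjusted p = 0.0452).

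Nucleolar phosphoproteins and regulators fell in 4 of 6 cases. Ncl (chromosome 1, 86344719 to 86359400, minus strand) encodes nucleolin, an abundant RNA-binding protein of the nucleolus. It had 550, 492 and 382 CPM with CHIR, 349, 299 and 349 CPM at 24 h, and 223, 242 and 240 CPM at 48 h. The 3 groups did not overlap, and the 48 h level was lower, with a log2 fold change of −1.01 ± 0.17 (SE; adjusted p = 0.00762). Gnl3 (chromosome 14, 31012433 to 31019152, minus strand), nucleostemin, a nucleolar GTPase known from stem and cycling cells, had 68.6, 69.7 and 72.5 CPM with CHIR, 39.3, 101 and 33.1 CPM at 24 h, and 22.2, 21.7 and 24 CPM at 48 h. The CHIR libraries were close together and far above the 48 h libraries, and 24 h withdrawal 2 exceeded both groups. The fitted log2 change was −1.63 ± 0.33 (SE; adjusted p = 0.0179). Noc2l, a nucleolar inhibitor of histone acetylation, had 137, 168 and 189 CPM with CHIR, 110, 81.3 and 111 CPM at 24 h, and 70.8, 70.5 and 71.7 CPM at 48 h. Its log2 fold change was −1.22 ± 0.22 (SE; adjusted p = 0.0102), and the 48 h values lay close together. Nolc1, a chaperone of snoRNPs, had 115, 115 and 94.3 CPM with CHIR, 73.6, 66.4 and 75.3 CPM at 24 h, and 50.7, 63.2 and 53.5 CPM at 48 h, again without overlap and with a log2 change of −0.96 ± 0.17 (SE; adjusted p = 0.00893). Npm1, nucleophosmin, a shuttling chaperone of ribosome assembly, had 21, 14.5 and 11.3 CPM with CHIR, 13.6, 21.1 and 11.1 CPM at 24 h, and 9.52, 10 and 7.5 CPM at 48 h. Its difference of −0.79 ± 0.27 (SE; adjusted p = 0.141) was not called, nor was that of the RNA helicase Ddx21 at −0.76 ± 0.19 (SE; adjusted p = 0.0504), although neither overlapped CHIR. Both were called with 15 libraries.

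Box C/D snoRNPs guide 2′-O-methylation of ribosomal RNA, and 3 of their 4 proteins fell. Nop58 (chromosome 1, 59684971 to 59719044, plus strand), a core scaffold protein, had 100, 79.1 and 60.3 CPM with CHIR, 52.7, 54.4 and 54.6 CPM at 24 h, and 28.2, 34.3 and 33.1 CPM at 48 h. The groups were fully separate in that order, and the log2 fold change of Nop58 at 48 h was −1.33 ± 0.19 (SE; adjusted p = 0.00488), a call kept in each of the 6 omissions of 1 library. Its partner Nop56 (chromosome 2, 130274430 to 130279313, plus strand) had 213, 116 and 98.2 CPM with CHIR, 69.5, 181 and 77.1 CPM at 24 h, and 48.5, 57.6 and 53.3 CPM at 48 h. The CHIR libraries differed more than 2-fold among themselves, and the change was −1.42 ± 0.33 (SE; adjusted p = 0.0327). Rrp9, a protein particular to the U3 snoRNP that guides cleavage of the precursor, had 52.7, 55.5 and 55.2 CPM with CHIR, 38.2, 35.4 and 34.3 CPM at 24 h, and 19.2, 23.9 and 21.9 CPM at 48 h. It stepped down without overlap at each time, and the 48 h change was −1.33 ± 0.20 (SE; adjusted p = 0.00555). Fbl, fibrillarin, the methyltransferase of the particle, was listed at a low 1.97, 2.03 and 1.81 CPM with CHIR, 1.31, 1.66 and 1.91 CPM at 24 h, and 0.947, 0.949 and 0.976 CPM at 48 h. Most of its sequence is shared with other genes, and −1.01 ± 0.38 (SE; adjusted p = 0.187) was not called.

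**Figure D2:**
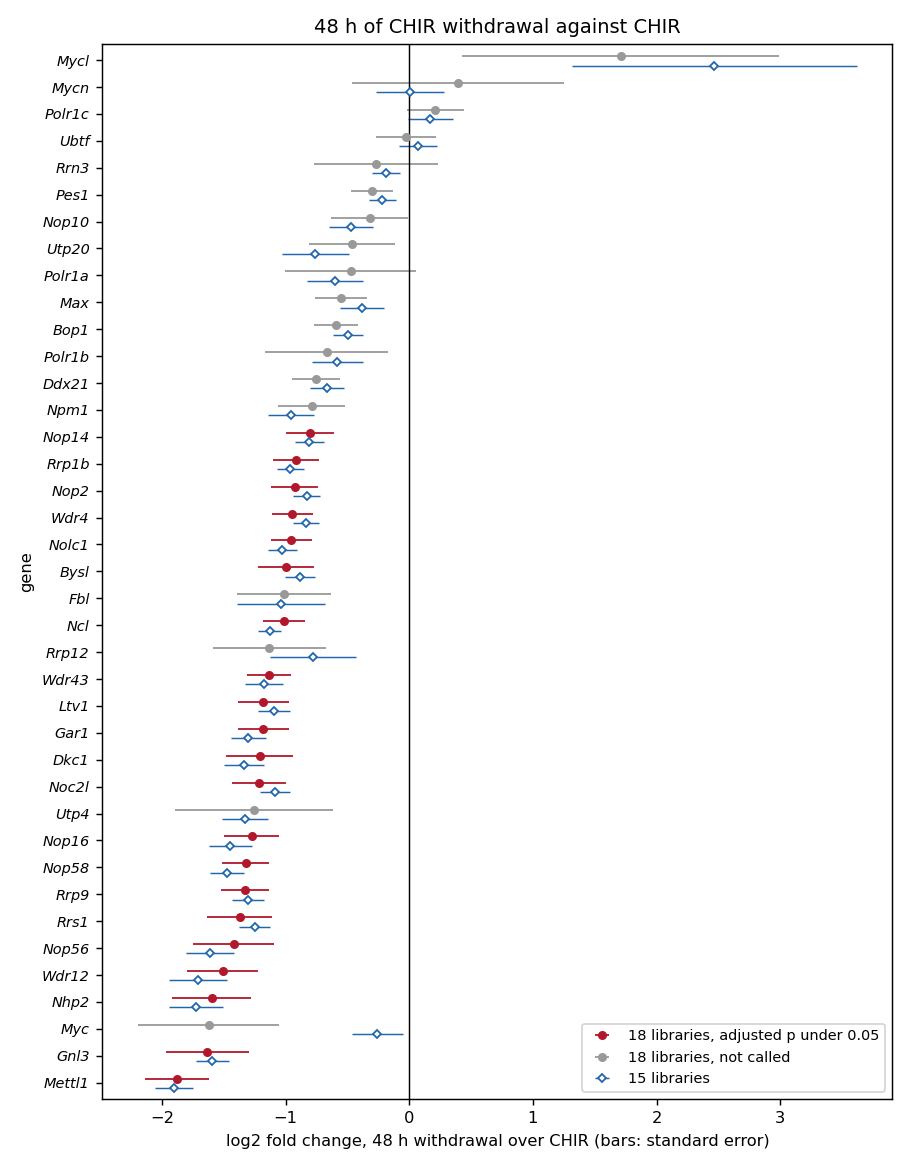
Log2 fold change of each member at 48 h of withdrawal over CHIR, with standard errors, for 18 libraries (circles, red where the adjusted p is under 0.05) and for 15 libraries (open diamonds). Of the 39, 21 are red and all of these lie left of 0, while the 2 estimates for Myc, −1.62 and −0.26, stand far apart.

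Box H/ACA snoRNPs guide pseudouridylation, and again 3 of 4 proteins fell. Dkc1, dyskerin, the pseudouridine synthase, had 58.2, 38.6 and 34.5 CPM with CHIR, 24.2, 11.4 and 25.3 CPM at 24 h, and 18.3, 20 and 18.3 CPM at 48 h, with the lowest value in 24 h withdrawal 2. Its log2 change at 48 h was −1.21 ± 0.27 (SE; adjusted p = 0.0269). Nhp2 (chromosome 11, 51619735 to 51623714, plus strand), an RNA-binding partner, had 188, 91.3 and 100 CPM with CHIR, 73.2, 159 and 69 CPM at 24 h, and 39.8, 45.1 and 40.3 CPM at 48 h. Every 48 h library was below every library of both other groups, and the change was −1.60 ± 0.32 (SE; adjusted p = 0.0163). Gar1, which binds the synthase, had 17.1, 16.5 and 12.2 CPM with CHIR, 12.3, 10.9 and 10 CPM at 24 h, and 5.98, 7.36 and 6.86 CPM at 48 h. Only its 48 h group stood clear of both others, at −1.18 ± 0.20 (SE; adjusted p = 0.00893) against CHIR. Nop10, the smallest of the 4, differed by −0.32 ± 0.31 (SE; adjusted p = 0.684) and was not called.

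Factors of the 60S subunit fell in 5 of 7 cases. Wdr12 (chromosome 1, 60069785 to 60098645, minus strand), which forms the PeBoW complex with Pes1 and Bop1 in processing of the large ribosomal RNA, had 30.1, 15.3 and 13.2 CPM with CHIR, 8.52, 8.49 and 8.93 CPM at 24 h, and 7.12, 7.06 and 6.41 CPM at 48 h. The 24 h libraries lay nearer to 48 h than to CHIR, and the change at 48 h was −1.51 ± 0.29 (SE; adjusted p = 0.0132). The other 2 proteins of the complex were not called, with −0.59 ± 0.18 (SE; adjusted p = 0.0898) for Bop1 and −0.30 ± 0.17 (SE; adjusted p = 0.4) for Pes1. Nop16 had 82.3, 46.9 and 40.9 CPM with CHIR, 33.1, 36.6 and 32 CPM at 24 h, and 23.6, 23.7 and 22.8 CPM at 48 h. All 3 groups were separate, with −1.28 ± 0.22 (SE; adjusted p = 0.00893) at 48 h. Rrs1 (chromosome 1, 9545408 to 9547455, plus strand), which brings the 5S RNA into the subunit, had 56.6, 58 and 69.9 CPM with CHIR, 35.2, 55.5 and 34.4 CPM at 24 h, and 23, 23.4 and 24.9 CPM at 48 h. The groups did not overlap, and its log2 fold change was −1.37 ± 0.26 (SE; adjusted p = 0.0132). Nop2, a methyltransferase of 28S ribosomal RNA, had 75.4, 90.9 and 97.5 CPM with CHIR, 63, 43.8 and 63.8 CPM at 24 h, and 44.5, 48.5 and 45.6 CPM at 48 h, a change of −0.93 ± 0.19 (SE; adjusted p = 0.0163). Rrp1b had 44.3, 48.2 and 40.4 CPM with CHIR, 31.1, 22.9 and 34.9 CPM at 24 h, and 21.7, 24.2 and 24.5 CPM at 48 h, a change of −0.92 ± 0.18 (SE; adjusted p = 0.0161). For both, the 24 h group overlapped 48 h through 24 h withdrawal 2 alone.

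Factors of the 40S subunit fell in 4 of 7 cases. Wdr43, a protein of the early small subunit processome, had 163, 105 and 119 CPM with CHIR, 75.8, 65.6 and 81.5 CPM at 24 h, and 60.2, 57.4 and 58.6 CPM at 48 h. The groups were separate in that order, and the change at 48 h was −1.14 ± 0.18 (SE; adjusted p = 0.00648). Ltv1, which helps the small subunit to leave the nucleus, had 76.8, 60.7 and 78.9 CPM with CHIR, 43.7, 58.2 and 48.6 CPM at 24 h, and 31.3, 34.9 and 29.3 CPM at 48 h, also separate, with −1.18 ± 0.21 (SE; adjusted p = 0.00972). Bysl, bystin, a factor of 18S processing, had 61.7, 58.2 and 71.9 CPM with CHIR, 41.8, 34.7 and 43.7 CPM at 24 h, and 28.7, 32.2 and 35.1 CPM at 48 h, with −0.999 ± 0.23 (SE; adjusted p = 0.0291). Nop14, a processome protein, had 58.6, 53.6 and 53.6 CPM with CHIR, 40, 60.6 and 38.1 CPM at 24 h, and 32.3, 33.5 and 29.2 CPM at 48 h, with the smallest of the 21 changes at −0.81 ± 0.19 (SE; adjusted p = 0.0377). For the processome proteins Utp4 and Utp20 and the export factor Rrp12, differences of −1.26 ± 0.64 (SE; adjusted p = 0.346), −0.46 ± 0.35 (SE; adjusted p = 0.565) and −1.13 ± 0.45 (SE; adjusted p = 0.22) were not called. Their libraries scattered widely, as Utp4 had 2.99 CPM in 24 h withdrawal 2 and 59.5 to 63.5 CPM in the other 24 h libraries, and Rrp12 had 11.9 CPM in CHIR 1 and 43.4 to 49.2 CPM in the other CHIR libraries. With 15 libraries Utp4 and Utp20 were called lower and Rrp12 was not.

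Both parts of the transfer RNA methyltransferase fell, Mettl1 the most of all members. Mettl1 (chromosome 10, 127041414 to 127046365, plus strand), the catalytic subunit, had 16.2, 16.6 and 14.9 CPM with CHIR, 11.7, 22.8 and 12.8 CPM at 24 h, and 3.52, 4.33 and 5.16 CPM at 48 h. The 48 h libraries were far below the others, whereas the 24 h libraries spanned the CHIR range. The change at 48 h was −1.88 ± 0.26 (SE; adjusted p = 0.00344), and it was called in each of the 6 omissions, as were those of Nop58, Rrp9 and Wdr43. Wdr4, the non-catalytic partner, had 37.9, 40.2 and 46.7 CPM with CHIR, 26, 29.9 and 27.9 CPM at 24 h, and 20.7, 23.3 and 20.7 CPM at 48 h. The groups did not overlap, and its log2 fold change was −0.95 ± 0.17 (SE; adjusted p = 0.00957).

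Most of the members stood between CHIR and 48 h at 24 h, but few single changes could be called there. By group mean, 30 of the 39 were ordered CHIR above 24 h above 48 h, and CHIR had the highest mean of the 6 groups for 32. At 24 h against CHIR no member was called over 18 libraries, and neither was any other gene (0% of those tested), while DESeq2 called 11 members, all lower (0.775% of all genes called lower), and 19 members and 2809 genes had an unadjusted p under 0.05. The 3 members with the smallest p were Wdr43 at −0.80 ± 0.18 (SE; unadjusted p = 0.000423, adjusted p = 0.197), Dkc1 at −1.11 ± 0.27 (SE; unadjusted p = 0.000875, adjusted p = 0.197) and Wdr12 at −1.18 ± 0.29 (SE; unadjusted p = 9e-04, adjusted p = 0.197). The median change of the members was −0.52, against 0.02 over all genes, and all 24 h libraries were below all CHIR libraries for 17 members (5.46% of all genes). Without the 3 libraries that stood apart, 18 members were called, all lower, where 2.94% of all genes were called lower. They included Wdr12 at −1.37 ± 0.27 (SE; adjusted p = 0.019), Nop56 at −1.16 ± 0.22 (SE; adjusted p = 0.0167), Dkc1 at −0.96 ± 0.18 (SE; adjusted p = 0.0167) and Gnl3 at −0.92 ± 0.15 (SE; adjusted p = 0.00806). Mettl1 was not among them, at −0.42 ± 0.17 (SE; adjusted p = 0.147).

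From 24 h to 48 h of withdrawal, Mettl1 was the single member called, at −1.86 ± 0.26 (SE; adjusted p = 0.0256), and the single gene called lower (0.00606% of all genes). That call was lost without any one of the 3 libraries at 48 h. The 48 h libraries were all below the 24 h libraries for 22 members (10.6% of all genes), and the median change was −0.38. Without 24 h withdrawal 3 the count was 3. DESeq2 called 7 members lower (2.6% of all genes), namely Ncl, Gnl3, Nop58, Rrp9, Gar1, Nhp2 and Mettl1, and 1 higher, Mycl (1% of all genes). With 15 libraries 11 members were called lower (3.51% of all genes), led by Mettl1 at −1.49 ± 0.16 (SE; adjusted p = 0.000374), Nop58 at −0.74 ± 0.14 (SE; adjusted p = 0.00761), Rrp9 at −0.74 ± 0.13 (SE; adjusted p = 0.00587) and Gar1 at −0.72 ± 0.14 (SE; adjusted p = 0.0103).

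**Figure D3:**
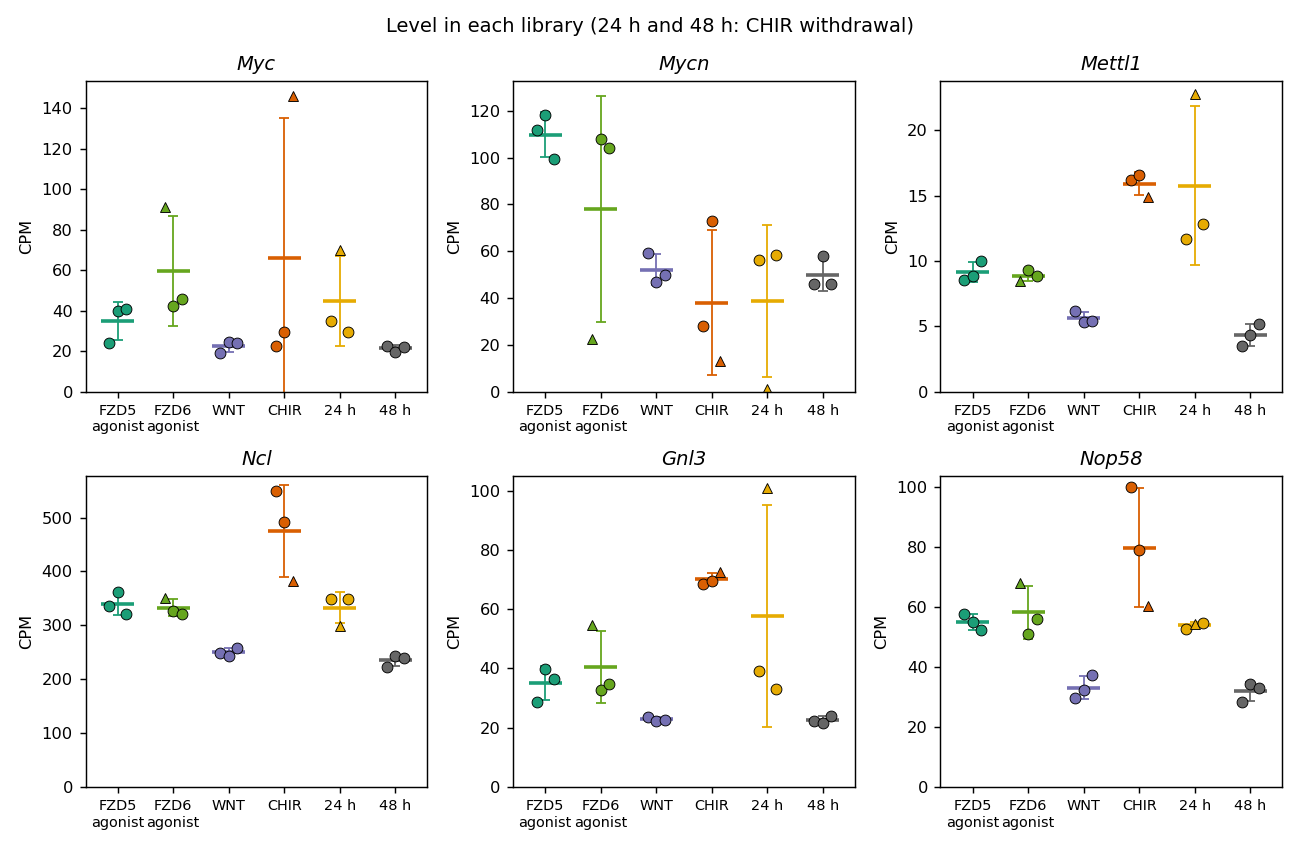
CPM of 6 members in each library, with the group mean as a line and its SD as a bar (n = 3). The triangles are FZD6 agonist 1, CHIR 3 and 24 h withdrawal 2, which are the highest libraries for Myc and the lowest for Mycn, and in Mettl1 the 48 h libraries lie between 3.52 and 5.16 CPM, below every other library.

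The ligand groups show the members with Wnt, or with an agonist of a single Frizzled receptor, in place of CHIR. The member sums were 1850, 2040 and 1968 CPM with the FZD5 agonist, 2447, 1974 and 1974 CPM with the FZD6 agonist and 1660, 1542 and 1603 CPM with WNT, against 1526, 1631 and 1567 CPM at 48 h. Both agonist groups were therefore above 48 h in every library, and WNT overlapped it. Over 18 libraries no member was called against 48 h with the FZD5 agonist (0% of genes), the FZD6 agonist (0.0121% of genes) or WNT (0% of genes). DESeq2 called 3 members higher with the FZD5 agonist (0.136% of all genes), 3 with the FZD6 agonist (0.316%) and 0 with WNT (0%), and an unadjusted p under 0.05 was seen for 4, 17 and 0 members and for 393, 667 and 35 genes of all tested, in that order. The median log2 difference of the members was 0.30 with the FZD5 agonist, 0.48 with the FZD6 agonist and 0.02 with WNT, where that of all genes was 0.01, 0.02 and 0.00. All 3 libraries were above all 48 h libraries for 25 members with the FZD5 agonist (64.1% of members, against 16.8% of all genes), 29 with the FZD6 agonist (74.4% against 13.2%) and 6 with WNT (15.4% against 7.42%). With WNT, 2.56% of members and 8.8% of all genes were below all 48 h libraries. Cycling markers summed to 510 to 669 CPM with the FZD5 agonist, 237 to 688 CPM with the FZD6 agonist and 314 to 390 CPM with WNT, against 255 to 318 CPM at 48 h. Alveolar type 1 markers summed to 6536 to 9445 CPM with the FZD5 agonist, 7357 to 7746 CPM with the FZD6 agonist and 8127 to 8813 CPM with WNT, against 8604 to 9970 CPM at 48 h, so that the FZD6 agonist lay below 48 h in every library. Club and secretory markers summed to 141 to 355 CPM with the FZD5 agonist, 154 to 1029 CPM with the FZD6 agonist and 496 to 551 CPM with WNT, against 525 to 658 CPM at 48 h, with the FZD5 agonist below 48 h in every library. The part of these markers' cell types in the members' differences was not tested.

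Mettl1 and Nop58 led both agonist comparisons. Mettl1 had 8.51, 8.88 and 10 CPM with the FZD5 agonist, 8.49, 9.31 and 8.81 CPM with the FZD6 agonist and 6.14, 5.34 and 5.41 CPM with WNT, against 3.52, 4.33 and 5.16 CPM at 48 h. Every agonist library was above every WNT library, and every WNT library above every 48 h library. The difference from 48 h was 1.07 ± 0.25 (SE; unadjusted p = 0.000688, adjusted p = 0.674) with the FZD5 agonist, 1.03 ± 0.25 (SE; unadjusted p = 0.000967, adjusted p = 0.389) with the FZD6 agonist and 0.38 ± 0.25 (SE; unadjusted p = 0.155, adjusted p = 1) with WNT. Nop58 had 57.5, 54.8 and 52.2 CPM with the FZD5 agonist, 68, 50.8 and 56 CPM with the FZD6 agonist and 29.6, 32.2 and 37.2 CPM with WNT, against 28.2, 34.3 and 33.1 CPM at 48 h. The agonist groups were clear of 48 h, by 0.78 ± 0.19 (SE; unadjusted p = 0.000898, adjusted p = 0.674) with the FZD5 agonist and 0.87 ± 0.19 (SE; unadjusted p = 0.000359, adjusted p = 0.345) with the FZD6 agonist, and the WNT group was not. Ncl had the next smallest p for the FZD5 agonist, with 336, 361 and 321 CPM, against 223, 242 and 240 CPM at 48 h, a difference of 0.53 ± 0.17 (SE; unadjusted p = 0.00586, adjusted p = 1). It had 350, 327 and 321 CPM with the FZD6 agonist and 249, 243 and 258 CPM with WNT, both above every 48 h library. Noc2l had the next smallest p for the FZD6 agonist, with 174, 101 and 105 CPM, against 70.8, 70.5 and 71.7 CPM at 48 h, a difference of 0.83 ± 0.22 (SE; unadjusted p = 0.00154, adjusted p = 0.518) in which FZD6 agonist 1 was far the highest. It had 84.1, 106 and 98.6 CPM with the FZD5 agonist and 79, 82.4 and 70 CPM with WNT.

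For Myc and Mycn the calls rested on which libraries were used. Myc had 24.1, 39.6 and 41 CPM with the FZD5 agonist, 91, 42.1 and 45.6 CPM with the FZD6 agonist and 18.9, 24.4 and 24.1 CPM with WNT, against 22.4, 19.6 and 22.1 CPM at 48 h. Agonist libraries were all above 48 h, with FZD6 agonist 1 the highest, and WNT overlapped it. Mycn had 112, 118 and 99.4 CPM with the FZD5 agonist, 22.3, 108 and 104 CPM with the FZD6 agonist and 59.4, 46.9 and 50 CPM with WNT, against 45.8, 58 and 46 CPM at 48 h. In 5 of the 6 agonist libraries it lay between 99.4 and 118 CPM, above every 48 h library, and in FZD6 agonist 1 it was below them. Over 18 libraries neither was called. With 15 libraries 7 members were called higher with the FZD5 agonist (3.18% of all genes) and 7 with the FZD6 agonist (2.81%), in both cases Myc, Mycn, Ncl, Gnl3, Noc2l, Nop58 and Mettl1. Myc then differed from 48 h by 0.72 ± 0.19 (SE; adjusted p = 0.0468) with the FZD5 agonist and 1.04 ± 0.20 (SE; adjusted p = 0.012) with the FZD6 agonist, and Mycn by 1.15 ± 0.25 (SE; adjusted p = 0.0202) and 1.09 ± 0.27 (SE; adjusted p = 0.0457). The 2 comparisons share the 48 h libraries, so their lists are not independent. Max had 35, 34 and 43 CPM with the FZD5 agonist, 41.3, 33.8 and 31.5 CPM with the FZD6 agonist and 28.9, 25.9 and 34.7 CPM with WNT, against 27.8, 32.6 and 35.4 CPM at 48 h. Mycl had 0.0273, 0.126 and 0.505 CPM with the FZD5 agonist, 1.32, 0.0475 and 0.115 CPM with the FZD6 agonist and 0.264, 0.53 and 0.191 CPM with WNT, against 0.316, 0.267 and 0.809 CPM at 48 h. Both overlapped 48 h in all 3 groups.

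None of the following 6 members was called against 48 h with any ligand over 18 libraries, and 2 of them, Npm1 and Fbl, had not been called at 48 h against CHIR either. Gnl3 had 28.8, 39.9 and 36.6 CPM with the FZD5 agonist, 54.6, 32.6 and 34.6 CPM with the FZD6 agonist and 23.7, 22.1 and 22.5 CPM with WNT, against 22.2, 21.7 and 24 CPM at 48 h. Agonists were above 48 h in all libraries, though still below every CHIR library. Nolc1 had 64.5, 77.1 and 67.5 CPM with the FZD5 agonist, 93.6, 75.1 and 74.6 CPM with the FZD6 agonist and 63.1, 54.2 and 55.8 CPM with WNT, against 50.7, 63.2 and 53.5 CPM at 48 h. Nop56 had 60.8, 64.6 and 69.8 CPM with the FZD5 agonist, 77.9, 69.8 and 70.8 CPM with the FZD6 agonist and 59.6, 49.6 and 52.1 CPM with WNT, against 48.5, 57.6 and 53.3 CPM at 48 h. For both, only WNT overlapped 48 h. Rrp9 had 21.9, 23.4 and 27.4 CPM with the FZD5 agonist, 41.6, 26 and 25.8 CPM with the FZD6 agonist and 25, 21.1 and 23.5 CPM with WNT, against 19.2, 23.9 and 21.9 CPM at 48 h, so that only the FZD6 agonist was clear of 48 h. Npm1 had 12.6, 10.3 and 10.7 CPM with the FZD5 agonist, 10.7, 9.05 and 9.89 CPM with the FZD6 agonist and 8.83, 8.11 and 9.99 CPM with WNT, against 9.52, 10 and 7.5 CPM at 48 h. Fbl had 0.628, 1.66 and 1.09 CPM with the FZD5 agonist, 1.55, 0.95 and 1.45 CPM with the FZD6 agonist and 0.768, 1.3 and 0.93 CPM with WNT, against 0.947, 0.949 and 0.976 CPM at 48 h. Npm1 was clear of 48 h with the FZD5 agonist alone and Fbl in none of the 3 groups.

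Among the box H/ACA proteins, Dkc1 had 26.3, 26.7 and 24.1 CPM with the FZD5 agonist, 29.7, 24.1 and 25.2 CPM with the FZD6 agonist and 20.5, 15.8 and 19.3 CPM with WNT, against 18.3, 20 and 18.3 CPM at 48 h. Nhp2 had 48.3, 57.4 and 59.2 CPM with the FZD5 agonist, 83.8, 59.4 and 59.9 CPM with the FZD6 agonist and 56, 48 and 54.8 CPM with WNT, against 39.8, 45.1 and 40.3 CPM at 48 h. Gar1 had 7.78, 9.59 and 8.61 CPM with the FZD5 agonist, 10.5, 9.76 and 9.52 CPM with the FZD6 agonist and 7.49, 7.48 and 7.79 CPM with WNT, against 5.98, 7.36 and 6.86 CPM at 48 h. The agonist groups were above 48 h for all 3 genes, and WNT was above it for Nhp2 and Gar1. Against 48 h with WNT the smallest p after that of Mettl1 were those of Rrs1 at 0.29 ± 0.26 (SE; unadjusted p = 0.278, adjusted p = 1) and Nhp2 at 0.34 ± 0.31 (SE; unadjusted p = 0.291, adjusted p = 1).

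In the 60S group, Wdr12 had 7.67, 7.37 and 8.59 CPM with the FZD5 agonist, 10.9, 7.74 and 8.65 CPM with the FZD6 agonist and 7.2, 4.77 and 5.67 CPM with WNT, against 7.12, 7.06 and 6.41 CPM at 48 h. Nop2 had 50.5, 60.4 and 55.2 CPM with the FZD5 agonist, 80.1, 60.5 and 57.8 CPM with the FZD6 agonist and 50.1, 44.8 and 46 CPM with WNT, against 44.5, 48.5 and 45.6 CPM at 48 h. Nop16 had 28.7, 27.6 and 30.1 CPM with the FZD5 agonist, 35.2, 30.9 and 29.1 CPM with the FZD6 agonist and 27.1, 24 and 25.8 CPM with WNT, against 23.6, 23.7 and 22.8 CPM at 48 h. Agonist libraries were above 48 h for these 3, and WNT for Nop16 alone. Rrp1b had 28, 31.7 and 27.5 CPM with the FZD5 agonist, 38.6, 29.5 and 31.1 CPM with the FZD6 agonist and 23.5, 22.8 and 20.5 CPM with WNT, against 21.7, 24.2 and 24.5 CPM at 48 h. Rrs1 had 26.1, 32.8 and 27.3 CPM with the FZD5 agonist, 59.4, 30.3 and 30.7 CPM with the FZD6 agonist and 32.5, 25.7 and 29 CPM with WNT, against 23, 23.4 and 24.9 CPM at 48 h. Rrs1 was above 48 h with all 3 ligands, and Rrp1b with both agonists.

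In the 40S group, Wdr43 had 68.8, 86.1 and 84.3 CPM with the FZD5 agonist, 91.4, 75.5 and 80.5 CPM with the FZD6 agonist and 61.2, 60.3 and 60 CPM with WNT, against 60.2, 57.4 and 58.6 CPM at 48 h. Ltv1 had 40.1, 37 and 41.1 CPM with the FZD5 agonist, 67.3, 40.2 and 41.8 CPM with the FZD6 agonist and 34.9, 29.3 and 34.5 CPM with WNT, against 31.3, 34.9 and 29.3 CPM at 48 h. For both, the agonists were clear of 48 h and WNT was not. Bysl had 30.8, 37.3 and 40 CPM with the FZD5 agonist, 71.1, 39.5 and 37.3 CPM with the FZD6 agonist and 33.2, 31.6 and 30.7 CPM with WNT, against 28.7, 32.2 and 35.1 CPM at 48 h. Nop14 had 33.7, 42.3 and 41.1 CPM with the FZD5 agonist, 49, 37.8 and 38.9 CPM with the FZD6 agonist and 33.1, 33.1 and 29.7 CPM with WNT, against 32.3, 33.5 and 29.2 CPM at 48 h. Wdr4, the partner of Mettl1, had 22, 23.7 and 23.2 CPM with the FZD5 agonist, 34.7, 28 and 24.9 CPM with the FZD6 agonist and 22.3, 20.9 and 22.6 CPM with WNT, against 20.7, 23.3 and 20.7 CPM at 48 h. Nop14 was clear of 48 h with both agonists. Bysl and Wdr4 were so with the FZD6 agonist alone, and in each of them FZD6 agonist 1 was the highest of the agonist libraries. Of the 12 members not given by library, Polr1c was below 48 h in all libraries of the 3 ligands, and Polr1a, Polr1b, Ddx21 and Rrp12 were above it with both agonists.

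**Figure D4:**
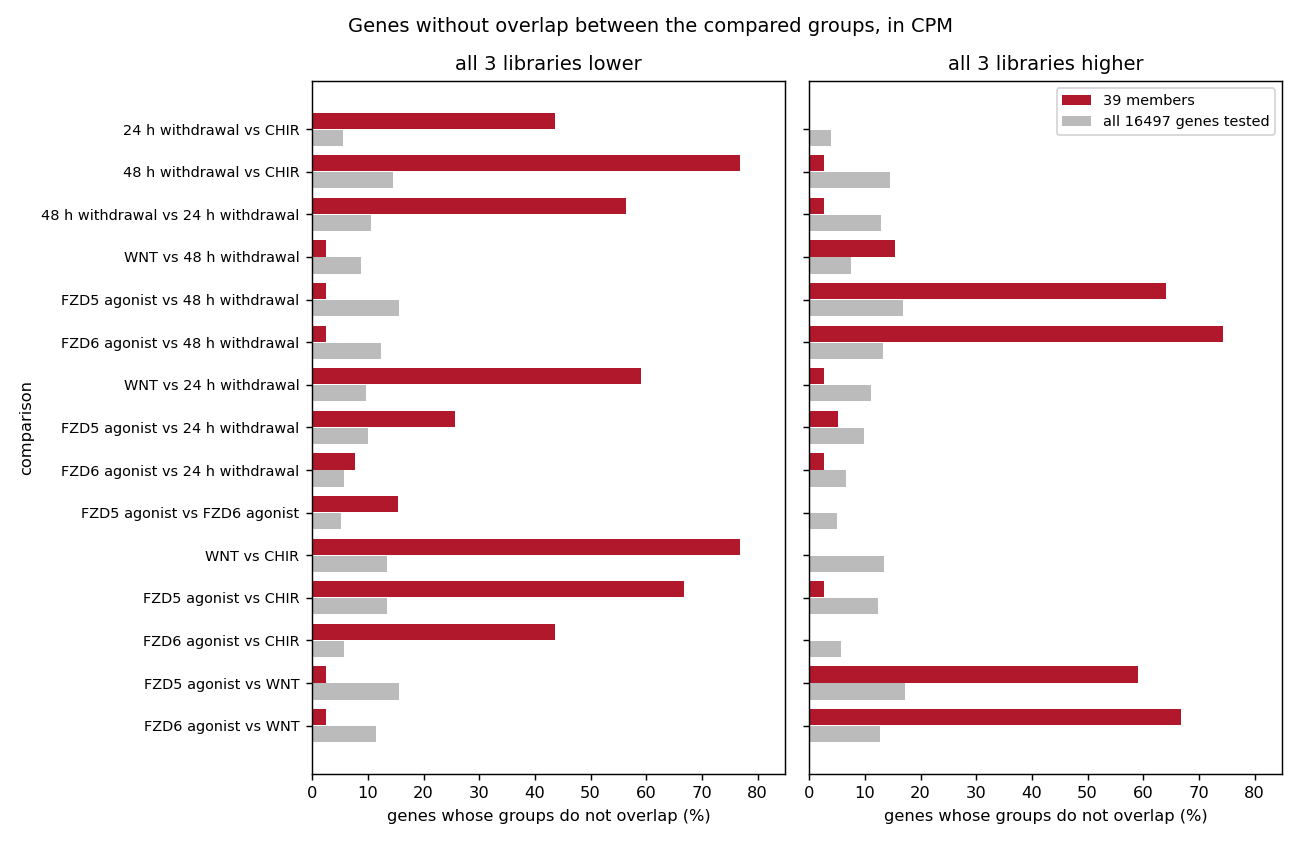
Share of the 39 members (red) and of all 16497 genes tested (grey), in percent, for which all 3 libraries of the first-named group lie below (left) or above (right) all 3 libraries of the second. On the left, members exceed all genes for both withdrawal groups and each ligand against CHIR, and for 48 h withdrawal and each ligand against 24 h withdrawal. They also do so there for the FZD5 agonist against the FZD6 agonist. On the right, members exceed all genes for both agonists against 48 h withdrawal and against WNT, and for WNT against 48 h withdrawal (15.4% against 7.42%).

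Compared with WNT, the agonists gave no call over 18 libraries (0% of genes for each). DESeq2 called 1 member, Nop58, higher in each comparison (0.105% of all genes with the FZD5 agonist and 0.254% with the FZD6 agonist), and an unadjusted p under 0.05 was seen for 4 members with the FZD5 agonist and 16 with the FZD6 agonist, and for 413 and 606 of all genes. These comparisons were added after values were seen. All libraries were above WNT for 23 members with the FZD5 agonist (17.2% of all genes) and 26 with the FZD6 agonist (12.7%). The smallest p with the FZD5 agonist were those of Nop58 at 0.73 ± 0.19 (SE; unadjusted p = 0.00154, adjusted p = 0.876), Mettl1 at 0.70 ± 0.25 (SE; unadjusted p = 0.014, adjusted p = 1) and Ncl at 0.44 ± 0.17 (SE; unadjusted p = 0.0176, adjusted p = 1). With the FZD6 agonist they were those of Nop58 at 0.82 ± 0.19 (SE; unadjusted p = 0.000609, adjusted p = 0.457), Noc2l at 0.71 ± 0.22 (SE; unadjusted p = 0.00476, adjusted p = 0.789) and Rrp1b at 0.57 ± 0.18 (SE; unadjusted p = 0.00673, adjusted p = 0.862). With 15 libraries, 5 members were called higher with the FZD5 agonist (Mycn, Ncl, Gnl3, Nop58 and Mettl1; 2.57% of all genes) and 4 with the FZD6 agonist (Myc, Gnl3, Nop58 and Mettl1; 1.82%).

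Between the agonists no member was called over 18 or 15 libraries, by edgeR or DESeq2 (0% of genes called, with 0 members and 164 genes at an unadjusted p under 0.05). The FZD5 agonist minus FZD6 agonist differences had a median of −0.19 over the members, and all FZD5 agonist libraries were below all FZD6 agonist libraries for 6 members (5.2% of all genes). The smallest p were those of Wdr4 at −0.35 ± 0.17 (SE; unadjusted p = 0.0534, adjusted p = 1), Bysl at −0.45 ± 0.23 (SE; unadjusted p = 0.0621, adjusted p = 1) and Rrs1 at −0.48 ± 0.26 (SE; unadjusted p = 0.08, adjusted p = 1). For these 3, FZD6 agonist 1 had the highest of the 6 values, and a missed threshold does not show that the agonists act alike.

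Relative to 24 h of withdrawal, WNT was lower in most members and the agonists closer. No member was called over 18 libraries with the FZD5 agonist (0.00606% of genes), the FZD6 agonist (0%) or WNT (0.0303%), whereas DESeq2 called none with the FZD5 agonist (0.943% of all genes called), Mycl higher with the FZD6 agonist (0.143%), and with WNT Mycl higher (0.645%) and 4 members lower (1.68%). In that order of ligands, 8, 5 and 13 members, with 2897, 2517 and 2682 of all genes, had an unadjusted p under 0.05. Median log2 differences were −0.14 with the FZD5 agonist, 0.07 with the FZD6 agonist and −0.41 with WNT. Groups were fully below 24 h for 10, 3 and 23 members in the same order, where 10%, 5.79% and 9.63% of all genes were. Leaving out 24 h withdrawal 2 gave 1 call with WNT, and leaving out 24 h withdrawal 1 gave 1 with the FZD6 agonist. The smallest p with the FZD5 agonist belonged to Mettl1 at −0.79 ± 0.25 (SE; unadjusted p = 0.00681, adjusted p = 0.214), Rrp9 at −0.57 ± 0.20 (SE; unadjusted p = 0.0103, adjusted p = 0.214) and Nhp2 at −0.87 ± 0.32 (SE; unadjusted p = 0.0147, adjusted p = 0.216). With the FZD6 agonist they belonged to Mycl, Mettl1 at −0.83 ± 0.25 (SE; unadjusted p = 0.0048, adjusted p = 0.223) and Polr1c at −0.56 ± 0.23 (SE; unadjusted p = 0.027, adjusted p = 0.264). Mycl had 1.32, 0.0475 and 0.115 CPM with the FZD6 agonist and 0 counts at 24 h, a mean at least 5.54-fold above the floor (unadjusted p = 0.00439, adjusted p = 0.223). Without FZD6 agonist 1 the mean was 0.0814 CPM, under the floor of 0.0892 CPM, and no bound remained. With WNT they belonged to Mettl1 at −1.48 ± 0.26 (SE; unadjusted p = 3.13e-05, adjusted p = 0.0795), Gnl3 at −1.34 ± 0.33 (SE; unadjusted p = 0.00103, adjusted p = 0.216) and Nop58 at −0.71 ± 0.19 (SE; unadjusted p = 0.00202, adjusted p = 0.216). With 15 libraries WNT had 7 members called lower (1.86% of all genes), namely Ncl, Gnl3, Noc2l, Nop58, Rrp9, Rrp1b and Mettl1, and neither agonist had any (0.173% and 0.0478% of all genes called).

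Set against CHIR, many members were lower with WNT. Of the 39, 20 fell (1.05% of all genes), which are those of 48 h without Nhp2, and none rose. The largest changes were those of Wdr12 at −1.73 ± 0.29 (SE; adjusted p = 0.00995), Gnl3 at −1.63 ± 0.33 (SE; adjusted p = 0.0221), Mettl1 at −1.501 ± 0.26 (SE; adjusted p = 0.0104), Nop56 at −1.40 ± 0.33 (SE; adjusted p = 0.041), Nop58 at −1.27 ± 0.19 (SE; adjusted p = 0.00659) and Dkc1 at −1.24 ± 0.27 (SE; adjusted p = 0.029). The count was 4, 1 and 1 without each WNT library in turn and 13, 19 and 19 without each CHIR library, with Nop58 called each time, and 28, all lower, with 15 libraries (15.8% of all genes). Alveolar type 1 markers summed to 8127 to 8813 CPM with WNT and 3753 to 7234 CPM with CHIR, without overlap. Cycling markers summed to 314 to 390 CPM with WNT, against 909, 856 and 130 CPM with CHIR, and club and secretory markers to 496 to 551 CPM with WNT, against 46.5, 47.0 and 889 CPM with CHIR. Their part in the fall was not tested. With the FZD5 agonist and the FZD6 agonist no member was called over 18 libraries (0.00606% of genes in each), although DESeq2 called 19 lower with the FZD5 agonist (2.18% of all genes) and 7 lower with the FZD6 agonist (0.149%). An unadjusted p under 0.05 was seen for 23 and 19 members and for 2223 and 1067 of all genes. Rrp9 led both, at −1.17 ± 0.20 (SE; unadjusted p = 2.46e-05, adjusted p = 0.0617) with the FZD5 agonist and −0.81 ± 0.20 (SE; unadjusted p = 0.000854, adjusted p = 0.556) with the FZD6 agonist. Next were Wdr4 at −0.86 ± 0.17 (SE; unadjusted p = 0.00011, adjusted p = 0.0703) and Wdr12 at −1.31 ± 0.29 (SE; unadjusted p = 0.000355, adjusted p = 0.0945) with the FZD5 agonist, and Wdr12 at −1.11 ± 0.29 (SE; unadjusted p = 0.00149, adjusted p = 0.574) and Nop16 at −0.84 ± 0.22 (SE; unadjusted p = 0.0015, adjusted p = 0.574) with the FZD6 agonist. Median differences were −0.67 with the FZD5 agonist, −0.42 with the FZD6 agonist and −0.95 with WNT, and 26, 17 and 30 members were below CHIR in every library (13.5%, 5.68% and 13.5% of all genes). Leaving out 1 library gave 6 calls with the FZD5 agonist without CHIR 2, 4 without CHIR 3, and 1 with the FZD6 agonist without FZD6 agonist 1. Shares of all genes were not computed for these fits. With 15 libraries the FZD5 agonist had 25 members lower (12.8% of all genes) and 1 higher (11.3%), and the FZD6 agonist 24 lower (7.06%) and 2 higher (7.09%). The higher ones were Mycn with the FZD5 agonist, at 1.15 ± 0.29 (SE; adjusted p = 0.0144), and Myc and Mycn with the FZD6 agonist, at 0.78 ± 0.23 (SE; adjusted p = 0.0395) and 1.09 ± 0.31 (SE; adjusted p = 0.0355). That fit held CHIR 1 and CHIR 2 alone as its CHIR libraries. Mycn was at 28.1 CPM in CHIR 1 and at 45.8 to 118 CPM in the other 14 libraries, so its differences from CHIR rest partly on CHIR 1.

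Wider lists of ribosome assembly and transfer RNA modification also held genes that fell at 48 h against CHIR, and their medians were below 0. Of all genes tested, 1.49% were called lower and 1.1% higher in that comparison. Of 47 further genes of 60S assembly, 10 fell and none rose (median −0.70), with the smallest p for Rrp15 at −1.55 ± 0.25 (adjusted p = 0.00664), Sdad1 at −1.10 ± 0.21 (adjusted p = 0.0129) and Ftsj3 at −0.89 ± 0.18 (adjusted p = 0.0188). Of 45 further genes of the small subunit processome and 40S assembly, 5 fell (median −0.50), including Wdr75 at −0.90 ± 0.16 (adjusted p = 0.00957), Utp18 at −1.08 ± 0.20 (adjusted p = 0.0105) and Mphosph10 at −1.01 ± 0.22 (adjusted p = 0.0241). Polymerase I machinery had 1 of 11 lower (median −0.39), Polr1e at −1.05 ± 0.27 (adjusted p = 0.0485). Among 52 tested genes of transfer RNA modification 5 fell (median −0.50), among them Yrdc at −0.97 ± 0.19 (adjusted p = 0.0138), Trub1 at −1.06 ± 0.22 (adjusted p = 0.0187) and Trmt6 at −1.08 ± 0.23 (adjusted p = 0.02).

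Of 25 other known Myc targets, 7 fell at 48 h (median −0.76), where 1.49% of all genes were called lower. Srm, spermidine synthase, changed by −2.04 ± 0.25 (adjusted p = 0.00257), C1qbp, a mitochondrial matrix protein, by −1.36 ± 0.21 (adjusted p = 0.00565), and Hspd1, the mitochondrial chaperonin, by −1.64 ± 0.25 (adjusted p = 0.00594). Of 9 partners and antagonists of Myc and Max, 2 rose and none fell, where 1.1% of all genes were called higher. The 2 were Mxd1 at 1.67 ± 0.30 (adjusted p = 0.0101) and Mxd4 at 1.82 ± 0.42 (adjusted p = 0.032), proteins that pair with Max and repress E-box genes, and the list's median was 0.59. With WNT against CHIR the same lists had 8 of 47, 3 of 45, 0 of 11, 3 of 52 and 6 of 25 genes lower and, of the Myc network, 1 of 9 higher, Mxd1. Of all genes, 1.05% were called lower there. Of the 11 genes of the polymerase I machinery, 2 had an unadjusted p under 0.05 with WNT against CHIR, and DESeq2 called 2. Against 48 h, edgeR called no gene of these lists with any ligand over 18 libraries. Of all genes, DESeq2 called 0.211% with the FZD5 agonist, 0.403% with the FZD6 agonist and 0% with WNT, in either direction. Counts of all genes with an unadjusted p under 0.05 are given above with these comparisons. Among 60S assembly genes, an unadjusted p under 0.05 was seen for 3 with the FZD5 agonist, 8 with the FZD6 agonist and 0 with WNT, and DESeq2 called 1, 1 and 0. Among other Myc targets it was seen for 2, 6 and 0, and DESeq2 called 0, 2 and 0 in that order. In the other 4 lists DESeq2 called none, and an unadjusted p under 0.05 was seen for 0 to 1 genes a list with the FZD5 agonist, 1 to 6 with the FZD6 agonist and 0 with WNT. These lists were chosen with earlier results known, and their counts, medians and named genes are a description.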

How the data were processed

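RNA from 18 libraries of cultured mouse alveolar type 2 cells, in 6 groups of 3, was sequenced after a stranded total RNA preparation, per the labels' protocols. The submitters' processing notes name GSNAP and GRCm38. Neither the counting program nor its annotation and strand setting is given in the sources used here. The deposited files hold, for each of 52636 Ensembl genes, a raw read count, an RPKM value computed by the authors and the gene width the authors used.

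Symbols and positions came from GENCODE M21, which named 99.6% of the genes. Counts were tested with edgeR 4.0.16 (quasi-likelihood, robust, TMM scaling, filterByExpr with a minimum count of 10) under R 4.3.3. All 18 libraries entered 1 fit, with Benjamini-Hochberg adjustment over 16497 genes and a threshold of 0.05. CPM are counts over TMM-scaled library sizes, a mean is over 3 libraries, and SE is the standard error of the log2 fold change. Total counts ran from 31509607 to 52030066. Floors and intervals of counts cover counting error only.

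The alternatives were DESeq2 1.42.0, RLE scaling, no filter, the replicate number as a block, leaving out each library, and fits of 15 and 14 libraries. The FZD5 agonist and FZD6 agonist were also set against WNT, a comparison added after values were seen. Members given by library were Myc, Mycn, Mycl, Max, Npm1, Fbl and every member called at 48 h against CHIR. Where a comparison had no call, the 3 members with the smallest p are named. Sequences are from RefSeq on GRCm38.p6. The members and all lists were chosen with earlier results of these data known. The fitting procedure was tested on simulated counts.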

Additional observations from a re-analysis of the deposited data

How the results depend on the processing

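With the replicate number as a block the members called were 18 at 48 h against CHIR (1.56% of all genes, in either direction), 16 with WNT against CHIR (1.2%) and 0 at 48 h against 24 h (0.0121%), all lower, where the fit without it gave 21, 20 and 1, and it changed no other count. Libraries with the same number did not deviate together (45 pairs, r from −0.616 to 0.545, median −0.0209), and 4 of 18 libraries correlated best with their own number. RLE scaling moved no count by more than 1. Without a filter on low counts, where 30227 genes were tested, 13, 8 and 0 members were called in those 3 comparisons, all lower (0.675%, 0.572% and 0.00992% of all genes in either direction).

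DESeq2 called 11 members at 24 h against CHIR and 8 at 48 h against 24 h (7 lower and Mycl higher). Against 48 h it called 3 with the FZD5 agonist and 3 with the FZD6 agonist, against 24 h 1 with the FZD6 agonist and 5 with WNT, against CHIR 19 with the FZD5 agonist and 7 with the FZD6 agonist, and against WNT 1 with each agonist. With 15 libraries the counts were 18 at 24 h against CHIR, 11 at 48 h against 24 h, 7 with either agonist against 48 h, 7 with WNT against 24 h, 26 with either agonist against CHIR, and 5 with the FZD5 agonist and 4 with the FZD6 agonist against WNT, each with its direction and share of all genes beside the comparison. With 14 libraries, also without CHIR 1, the lone CHIR library is assumed to vary like the other groups. Against CHIR the counts were 19 at 24 h (18 lower; 4.5% of all genes in either direction), 31 at 48 h (30 lower; 27.5%), 27 with the FZD5 agonist (26 lower; 13.6%), 27 with the FZD6 agonist (26 lower; 8.48%) and 32 with WNT (31 lower; 26.6%). Against 24 h they were 26 at 48 h (25 lower; 18%), 4 with the FZD5 agonist (3 lower; 4.23%), 1 with the FZD6 agonist (higher; 0.677%) and 25 with WNT (24 lower; 13.6%). Against 48 h they were 22 with the FZD5 agonist (21 higher; 15.7%) and 23 with the FZD6 agonist (22 higher; 12.1%), and against WNT 19 with the FZD5 agonist (18 higher; 16.7%) and 18 with the FZD6 agonist (17 higher; 11.8%). Where 1 member went the other way it was Polr1c, Mycl or Mycn. In comparisons without CHIR, the fits of 15 and 14 libraries held the same libraries of the compared groups. There only the shared estimate of the spread, the scaling and the set of genes tested could differ, so a larger count is not added support. Which of these moved the counts was not tested, nor was the cause of the other differences between fits.

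Leaving out 1 library of the compared groups gave 4 to 21 members at 48 h against CHIR, 1 to 19 with WNT against CHIR, 0 to 3 at 48 h against 24 h, 0 to 1 with WNT and 0 to 1 with the FZD6 agonist against 24 h, and 0 to 6 with the FZD5 agonist and 0 to 1 with the FZD6 agonist against CHIR. The share of all genes called was not computed for these fits, so the members' counts have no background beside them. WNT against 48 h and the FZD5 agonist against the FZD6 agonist had 0 members called in every fit. No member called over 18 libraries changed sign in any fit. With 3 libraries a group, a difference that was not called may be real, and Mycl reached at most 1.32 CPM in any library.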
